A study of Rattus norvegicus with 64 samples.

Results

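The 7 genes described here, Slc15a5, Bhmt, Prokr1, Myh3, Nxph3, Rprm, and Rgs18, were selected on their read counts, which were far lower in layer II (LII) than in the deep layers (LDeep, layers III–VI) of the medial entorhinal cortex (MEC). They are 7 of the 17260 genes in the count files. Total RNA of Long Evans rats of postnatal day 2, 9, 23, or 45 (P2, P9, P23, P45) had been sequenced after removal of ribosomal RNA, for LII and LDeep of both the MEC and the lateral entorhinal cortex (LEC), and neither labels nor methods name a treatment or a genetic change. A layer of a region was sequenced from 5 replicates of P2, 4 of P9, 3 of P23, and 4 of P45, and the 64 libraries are split evenly between the regions (32 each). The layers were cut out of unstained brain slices under a microscope, so each library is bulk tissue that holds neurons, glia, vessels, and, at the surface, meninges.

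Since the MEC layer difference chose the genes, it is given as a description, with no test. Tested were the LEC libraries, which lie outside the contrast that chose the genes. Also tested was the difference between younger and older animals in the MEC with the layers weighted equally. That second test uses the MEC libraries that chose the genes. The replicate numbers of both regions are the same, so the LEC tissue may come from the same animals as the MEC tissue, which the labels do not say. A layer log2 fold change (LFC) is LII over LDeep, so a negative value is a lower level in LII. An LFC stands with its standard error (SE) and, where tested, with the adjusted p of edgeR's quasi-likelihood test with Benjamini-Hochberg adjustment over all genes kept. Levels are CPM, read counts relative to the library total after TMM scaling over all 64 libraries, or their log2 (prior count 2), as mean ± SD over replicates. A replicate left out is left out in both layers.

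Layer II of the entorhinal cortex holds the stellate, fan, and pyramidal cells that send the main cortical input to the hippocampus, while layers V and VI receive hippocampal output and project to the neocortex, the thalamus, and other subcortical targets. LDeep also holds layer III, so it is not layers V and VI alone. Deep-layer projection neurons are set apart by transcription factors such as Tle4, Tbr1, Fezf2, and Sox5 from early in development. The first postnatal weeks in the rat include the growth of dendrites and synapses and the onset of myelination, and the eyes open between P9 and P23. The 7 genes belong to unrelated families: a transporter, an enzyme, a receptor, a secreted synaptic ligand, a cell cycle protein, a regulator of G protein signalling, and a muscle-type motor protein.

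In the Rn6 gene models of the files, Slc15a5 lies at chr4:171970620-172063391 on the minus strand, 9 exons, 1716 bases of exon, and Prokr1 on the same chromosome at chr4:119377255-119384720 on the minus strand, 2 exons, 1182 bases of exon. Bhmt lies at chr2:23236573-23256158 on the minus strand, 8 exons, 1866 bases of exon. Nxph3 lies at chr10:83329263-83332929 on the minus strand, 2 exons, 1082 bases of exon, and Myh3 at chr10:53621375-53645194 on the plus strand, 42 exons, 6035 bases of exon. Rprm is a single-exon gene at chr3:39595301-39596718 on the minus strand, 1 exon, 1418 bases of exon. Rgs18 lies at chr13:61565483-61591139 on the minus strand, 5 exons, 708 bases of exon. No exon of another gene overlapped an exon of the 7 on the same strand. Counts were taken on whole exons of a gene, both coding and untranslated where the model holds them. The exon lengths of Slc15a5, Bhmt, Prokr1, and Rgs18 are multiples of 3, as are those of 42.5% of all genes.

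Promoter sequences from RefSeq (build GRCr8, another build than the counts, 250 bases before to 50 after the start of the gene) were at hand for 6 of the 7, all but Nxph3. Nxph3 was called higher in the older LDeep of the LEC, as were Myh3 and Rgs18, while Prokr1, Rprm, and Slc15a5 were called lower. The Myh3 call was lost without P23 replicate 3. The promoter sequences of the 5 called members other than Nxph3 are printed so that they can be set side by side. Each runs 5′ to 3′ on the strand of the gene, and capitals mark matches on either strand to the TATA box (TATAAA), the GC box (GGGCGG), the CCAAT box (those letters), the E-box (CANNTG), the core that T-box factors bind (GGTGTG), or the core that SOX factors bind (AACAAT).
Prokr1, chr4:121590646-121590945, minus strand: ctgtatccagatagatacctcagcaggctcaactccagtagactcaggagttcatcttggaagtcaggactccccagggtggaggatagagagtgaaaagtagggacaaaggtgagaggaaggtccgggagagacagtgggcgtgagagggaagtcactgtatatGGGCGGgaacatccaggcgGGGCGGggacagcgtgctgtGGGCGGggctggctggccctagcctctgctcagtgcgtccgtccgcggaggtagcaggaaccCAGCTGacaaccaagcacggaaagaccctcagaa
Rprm, chr3:58949986-58950285, minus strand: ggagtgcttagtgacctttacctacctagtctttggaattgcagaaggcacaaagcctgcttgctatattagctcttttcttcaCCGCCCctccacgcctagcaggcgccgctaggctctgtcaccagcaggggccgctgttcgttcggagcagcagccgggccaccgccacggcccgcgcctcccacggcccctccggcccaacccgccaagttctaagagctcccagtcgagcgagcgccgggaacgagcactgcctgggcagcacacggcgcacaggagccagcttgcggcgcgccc
Slc15a5, chr4:172702844-172703143, minus strand: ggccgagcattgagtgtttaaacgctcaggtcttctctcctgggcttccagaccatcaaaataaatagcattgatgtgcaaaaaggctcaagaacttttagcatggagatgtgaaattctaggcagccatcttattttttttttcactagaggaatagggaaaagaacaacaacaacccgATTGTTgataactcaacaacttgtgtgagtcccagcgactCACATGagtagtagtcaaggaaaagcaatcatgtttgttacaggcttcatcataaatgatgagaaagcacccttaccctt
Myh3, chr10:52268935-52269234, plus strand: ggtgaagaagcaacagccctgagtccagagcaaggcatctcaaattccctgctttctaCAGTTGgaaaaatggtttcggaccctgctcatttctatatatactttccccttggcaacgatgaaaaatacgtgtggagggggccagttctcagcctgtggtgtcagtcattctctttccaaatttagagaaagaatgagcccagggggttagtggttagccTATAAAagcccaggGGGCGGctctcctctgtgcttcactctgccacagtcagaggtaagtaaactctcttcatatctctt
Rgs18, chr13:59066293-59066592, minus strand: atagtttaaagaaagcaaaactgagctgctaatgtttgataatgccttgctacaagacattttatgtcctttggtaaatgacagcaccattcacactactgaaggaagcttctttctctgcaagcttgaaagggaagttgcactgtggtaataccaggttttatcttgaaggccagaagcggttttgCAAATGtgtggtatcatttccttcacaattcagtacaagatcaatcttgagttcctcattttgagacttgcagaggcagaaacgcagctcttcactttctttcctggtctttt
No marked matches overlapped in these windows. TATAAA was found in 2 of 6 members and 14.2% of all promoters (Bhmt and Myh3), and GGGCGG in 3 of 6 members and 33.1% of all promoters (Prokr1, Myh3, and Rprm). CCAAT was found in 1 of 6 members and 37.5% of all promoters (Bhmt), CANNTG in 5 of 6 members and 72.1% of all promoters, and AACAAT in 1 of 6 members and 11.7% of all promoters (Slc15a5). GGTGTG was found in 0 of 6 members and 17.9% of all promoters. The GC content was 65.3% at Rprm, 59% at Prokr1, 55.3% at Bhmt, 47.7% at Myh3, 40.7% at Slc15a5, and 39.7% at Rgs18, beside a median of 51.7% over 33365 promoters. A match describes the letters in the window and not a site in use.

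Between 3894334 and 11439143 read pairs per library were counted on genes (median 7569157.5), so that 1 count stood for 0.0874 to 0.257 CPM before TMM scaling. The layer labels were checked against marker lists. The summed deep-layer neuron markers (16 genes in the files) stood at 1333 to 3537 CPM in MEC LDeep and 512 to 1177 CPM in MEC LII, and at 1091 to 2685 CPM and 619 to 988 CPM in the LEC, with no overlap in either region. Meningeal fibroblast markers (12 genes) stood at 814 to 1758 CPM in LEC LII and 38.4 to 261 CPM in LEC LDeep, with no overlap, and at 31.3 to 1872 CPM in MEC LII and 69.5 to 1244 CPM in MEC LDeep, which overlapped. In the MEC layer contrast 11 of these 12 were higher in LII, and 11 of 12 in the LEC. Their part in the layer differences below was not tested. In MEC P2 replicate 1 these markers were the other way round, with 31.3 CPM in LII and 1244 CPM in LDeep, as were the layer II markers (789.96 and 1061 CPM), while the deep-layer markers followed the labels (512 and 1586 CPM). The LII library of that replicate also held 202 CPM of choroid plexus and ependyma markers, the highest of the 64 libraries. In MEC P2 replicate 3 the meningeal markers stood at 69.3 CPM in LII and 69.5 CPM in LDeep. MEC LII P45 replicate 4 held 285 CPM of them, where the other 3 of its group held 1119 to 1326 CPM. The LEC library labelled LDeep P45 replicate 4 held 1711 CPM of layer II markers, where the other 3 of its group held 735 to 1010.03 CPM. LEC LDeep P23 replicate 3 held the most deep-layer markers of LEC LDeep, 2685 CPM. Tests of a member whose call changed without 1 of these 5 replicates are given with and without it.

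**Figure D1:**
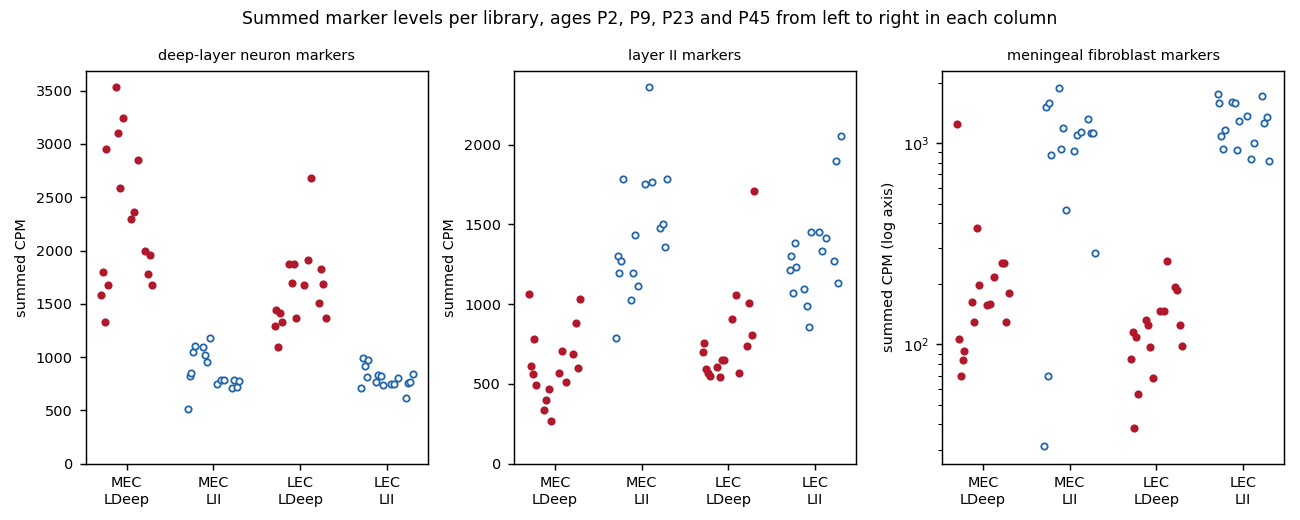
Summed CPM of the deep-layer neuron, layer II, and meningeal fibroblast markers in each of the 64 libraries, in columns by region and layer, with the ages P2, P9, P23, and P45 from left to right inside a column. Filled red points are LDeep and open blue points are LII. The deep-layer markers separate the layers in both regions, and the LDeep point among the LII values of the meningeal panel is MEC P2 replicate 1.

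Slc15a5 encodes a member of the SLC15 family of proton-coupled peptide transporters. Deep-layer Slc15a5 in the MEC measured 1.14, 1.91, 1.27, 3.34 and 2.53 CPM in the P2 libraries, 11.2, 9.8, 5.67 and 17.7 in those of P9, 2.35, 2.91 and 3.65 in those of P23, and 2.45, 1.93, 2.17 and 1.89 in those of P45. MEC LII held Slc15a5 at 0, 0, 0.186, 0.758 and 0.189 CPM in the P2 libraries, 0, 0.106, 0.122 and 0.419 in those of P9, 0.14, 0.138 and 0 in those of P23, and 0, 0, 0 and 0.911 in those of P45. The layers did not overlap at any age, LDeep was highest at P9, and many LII libraries held no read. In bulk tissue, fewer cells that express a gene and less of its RNA per cell cannot be told apart. LEC deep-layer Slc15a5 measured 1.68, 2.34, 0.238, 1.4 and 1.23 CPM in the P2 libraries, 4.28, 3.89, 5.61 and 3.75 in those of P9, 1.63, 1.14 and 2.39 in those of P23, and 0.748, 0.755, 0.584 and 0.22 in those of P45. LEC LII held Slc15a5 at 0.159, 0, 0.175, 0.74 and 0.176 CPM in the P2 libraries, 0, 0.347, 0.212 and 0.617 in those of P9, 0.166, 0 and 0 in those of P23, and 0, 0, 0 and 0 in those of P45. The LEC also had its highest LDeep values at P9 and few or no LII reads, with a lower deep-layer mean CPM than the MEC at each age, and the layers overlapped only at P2, where LDeep replicate 3 was low. In log2 CPM the LDeep level went from 0.53 ± 0.90 at P2 to 2.20 ± 0.25 at P9 and -0.31 ± 0.50 at P45 in the LEC. All 4 LEC LII libraries of P45 held 0 counts, and against a floor of 3 counts over that group the 19 deep-layer counts were at least 5.13-fold higher.

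Bhmt encodes betaine-homocysteine methyltransferase, which remakes methionine from homocysteine with betaine as methyl donor and is best known from liver and kidney. Deep-layer Bhmt in the MEC measured 2.85, 3.94, 1.04, 8.9 and 3.74 CPM in the P2 libraries, 13.9, 20.4, 15.7 and 20.8 in those of P9, 9.12, 14.8 and 7.18 in those of P23, and 9.06, 2.25, 11 and 3.78 in those of P45. MEC LII held Bhmt at 0.698, 0.359, 0.279, 1.21 and 0.66 CPM in the P2 libraries, 0.171, 1.17, 0.854 and 0.559 in those of P9, 0.419, 0.276 and 0 in those of P23, and 0.886, 0.199, 0.122 and 0 in those of P45. LDeep was higher in every pair of one replicate number, but at P2 a low LDeep library (replicate 3) lay below a high LII library (replicate 4). LEC deep-layer Bhmt measured 1.8, 5.24, 1.79, 6.11 and 3.84 CPM in the P2 libraries, 7.88, 11.6, 10.9 and 13 in those of P9, 5.02, 9.23 and 6.6 in those of P23, and 12.3, 6.66, 9.54 and 4.4 in those of P45. LEC LII held Bhmt at 0, 0.90, 1.4, 0.592 and 0.176 CPM in the P2 libraries, 0.372, 1.62, 1.27 and 0.411 in those of P9, 0.828, 1.29 and 0 in those of P23, and 1.25, 0, 0.855 and 0.363 in those of P45. No LEC LII library reached any LEC LDeep library at any age. The LDeep mean was lowest at P2 and highest at P9 in both regions (1.86 ± 1.01 and 4.15 ± 0.28 log2 CPM in the MEC, 1.85 ± 0.77 and 3.45 ± 0.30 in the LEC). Its near copy Bhmt2 fell below the filter on low counts, and reads of either that fit both places could not be told apart in the counting.

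Prokr1 encodes a G protein-coupled receptor for the prokineticins, secreted peptides with roles in gut motility, pain, and circadian behaviour. Deep-layer Prokr1 in the MEC measured 4.85, 11.2, 2.89, 26.7 and 4.34 CPM in the P2 libraries, 12.3, 7.55, 4.38 and 12 in those of P9, 1.66, 1.16 and 3.99 in those of P23, and 2.13, 3.0, 0.767 and 1.08 in those of P45. MEC LII held Prokr1 at 0, 0.538, 0.279, 6.06 and 1.13 CPM in the P2 libraries, 0, 0.638, 0 and 0.419 in those of P9, 0, 0.138 and 0.128 in those of P23, and 0, 0, 0.122 and 0.455 in those of P45. MEC LDeep libraries of P2 differed widely among themselves, and replicate 4 was the highest of its group in both layers. LEC deep-layer Prokr1 measured 3.71, 14.1, 1.67, 12.3 and 6.45 CPM in the P2 libraries, 6.19, 4.45, 6.98 and 7.8 in those of P9, 2.44, 3.69 and 6.46 in those of P23, and 2.0, 3.9, 1.95 and 3.52 in those of P45. LEC LII held Prokr1 at 0, 0.45, 0.175, 0.296 and 0.529 CPM in the P2 libraries, 0.186, 0.116, 0.106 and 0 in those of P9, 0.166, 0 and 0 in those of P23, and 0, 0.407, 0 and 0.0907 in those of P45. Every LEC LII library was below every LEC LDeep library, and none of the LII values reached 1 CPM. From P9 to P45 the deep-layer mean went from 3.11 ± 0.67 to 0.86 ± 0.76 log2 CPM in the MEC and from 2.70 ± 0.33 to 1.58 ± 0.48 in the LEC.

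Nxph3 encodes a neurexophilin, a secreted glycoprotein of synapses. Deep-layer Nxph3 in the MEC measured 34.1, 71.2, 42.2, 134 and 96.9 CPM in the P2 libraries, 198, 124, 70.7 and 201 in those of P9, 123, 103 and 161 in those of P23, and 101, 84, 116 and 82.6 in those of P45. MEC LII held Nxph3 at 2.19, 10.9, 29.8, 18.5 and 20.5 CPM in the P2 libraries, 5.8, 11.5, 8.05 and 10.8 in those of P9, 7.4, 8.0 and 11.1 in those of P23, and 7.45, 11, 11.2 and 12.6 in those of P45. The layers did not overlap over all ages, although at P2 LII replicate 3 came close to the lowest LDeep library. LEC deep-layer Nxph3 measured 30.4, 69, 27.5, 57.8 and 37 CPM in the P2 libraries, 75.4, 73.5, 59.5 and 53 in those of P9, 69.2, 89.2 and 129 in those of P23, and 72.5, 85.6, 88.6 and 50.4 in those of P45. LEC LII held Nxph3 at 13.5, 12.4, 13.6, 7.84 and 16.7 CPM in the P2 libraries, 5.21, 5.91, 5.72 and 4.93 in those of P9, 4.97, 8.24 and 5.08 in those of P23, and 5.75, 7.33, 5.13 and 2.36 in those of P45. Here too no LII library reached an LDeep library, and LII was highest at P2 while LDeep was lowest there. LII of the LEC held 3.67 ± 0.40 log2 CPM at P2 and 2.51 ± 0.11 at P9.

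Rprm encodes reprimo, a protein that halts the cell cycle. Deep-layer Rprm in the MEC measured 18.3, 59.4, 73.5, 84.5 and 78 CPM in the P2 libraries, 102, 70.7, 45.4 and 88.4 in those of P9, 37, 39.5 and 46.9 in those of P23, and 25.2, 24.1, 45.6 and 30.6 in those of P45. MEC LII held Rprm at 57.5, 14.5, 21.1, 19.4 and 18 CPM in the P2 libraries, 1.36, 4.79, 1.59 and 3.07 in those of P9, 3.07, 0.965 and 0.51 in those of P23, and 0.709, 0.397, 2.19 and 2.13 in those of P45. The layers were apart at P9, P23, and P45, but not at P2, where replicate 1 was higher in LII than in LDeep, the replicate whose meningeal and layer II markers were also the other way round. LEC deep-layer Rprm measured 61.4, 85.9, 85.2, 69.6 and 73.1 CPM in the P2 libraries, 59, 57.4, 52.8 and 53.8 in those of P9, 28.9, 36.6 and 65.3 in those of P23, and 36.3, 26.7, 34.3 and 29.7 in those of P45. LEC LII held Rprm at 29.9, 38.3, 50.5, 63.3 and 48.5 CPM in the P2 libraries, 11, 15.4, 13.9 and 20.8 in those of P9, 8.11, 5.01 and 0.544 in those of P23, and 3.75, 4.48, 3.76 and 5.26 in those of P45. LEC LII stood at 5.49 ± 0.41 log2 CPM at P2, not far below LDeep at 6.22 ± 0.20, and at 2.18 ± 0.22 at P45, when LDeep was at 4.99 ± 0.20. In LII the level thus moved further with age than in LDeep. LII replicate 3 of P23 was the lowest LEC library for Rprm.

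Rgs18 encodes a GTPase-activating protein for G protein alpha subunits, known mainly from platelets and megakaryocytes. Deep-layer Rgs18 in the MEC measured 0.571, 1.27, 1.04, 0.89 and 0.723 CPM in the P2 libraries, 20.1, 12.7, 9.76 and 14.3 in those of P9, 10.5, 11.9 and 20.7 in those of P23, and 13.6, 12.2, 8.18 and 7.02 in those of P45. MEC LII held Rgs18 at 0, 0.897, 0, 0.91 and 0.754 CPM in the P2 libraries, 1.02, 0.958, 0.366 and 0.698 in those of P9, 0.279, 0 and 0.51 in those of P23, and 0.355, 1.09, 1.1 and 2.28 in those of P45. At P2 both layers were near 1 CPM or below, and from P9 only LDeep was high. LEC deep-layer Rgs18 measured 0.786, 0.413, 0, 0.763 and 0.921 CPM in the P2 libraries, 10.5, 8.25, 10.5 and 3.03 in those of P9, 9.23, 12.4 and 36.5 in those of P23, and 9.73, 13, 14.8 and 3.74 in those of P45. LEC LII held Rgs18 at 0.637, 0.90, 0.699, 0.592 and 0 CPM in the P2 libraries, 1.12, 1.27, 1.38 and 0.822 in those of P9, 0.993, 0.485 and 0.544 in those of P23, and 1.75, 0.814, 1.37 and 0.635 in those of P45. The LEC showed the same order, with both layers low at P2 and LDeep above LII from P9, and with LDeep replicate 3 of P23 far above the other 2 of its group and replicate 4 of P45 below its own. The platelet genes Ppbp and Gp9 did not pass the filter on low counts in either region, and Pf4 was higher in LII (LEC LFC 2.52 ± 0.26, adjusted p = 2.76e-09). The part of blood cells or platelets in the Rgs18 levels was not tested.

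Myh3 encodes the embryonic myosin heavy chain of skeletal muscle. Deep-layer Myh3 in the MEC measured 3.14, 6.49, 5.67, 10.01 and 11.5 CPM in the P2 libraries, 43.7, 34.1, 22.9 and 31.3 in those of P9, 26.1, 27.6 and 46.5 in those of P23, and 36.7, 27.1, 26.6 and 20.1 in those of P45. MEC LII held Myh3 at 0.299, 1.97, 2.33, 3.79 and 2.92 CPM in the P2 libraries, 4.95, 5.96, 2.68 and 5.03 in those of P9, 0.978, 0.827 and 1.15 in those of P23, and 2.13, 0.993, 1.7 and 3.49 in those of P45. LDeep was higher in each pair, and the layers overlapped only at P2. LEC deep-layer Myh3 measured 7.86, 12.1, 2.86, 13.4 and 7.21 CPM in the P2 libraries, 28.5, 37.5, 24.5 and 25.3 in those of P9, 23.5, 23.4 and 54.2 in those of P23, and 16.2, 22.8, 20.5 and 8.37 in those of P45. LEC LII held Myh3 at 0.955, 2.25, 1.92, 1.92 and 2.82 CPM in the P2 libraries, 8.56, 9.26, 7.53 and 10.5 in those of P9, 3.64, 3.07 and 2.18 in those of P23, and 1.5, 2.65, 2.22 and 1.72 in those of P45. In both regions LDeep was lowest at P2, and LII was highest at P9 before it fell back. LEC LII held 3.20 ± 0.19 log2 CPM at P9 and 1.17 ± 0.32 at P45. Myosin heavy chain genes share long stretches of sequence, and read pairs that fit several of them may have been lost or misplaced in the counting.

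**Figure D2:**
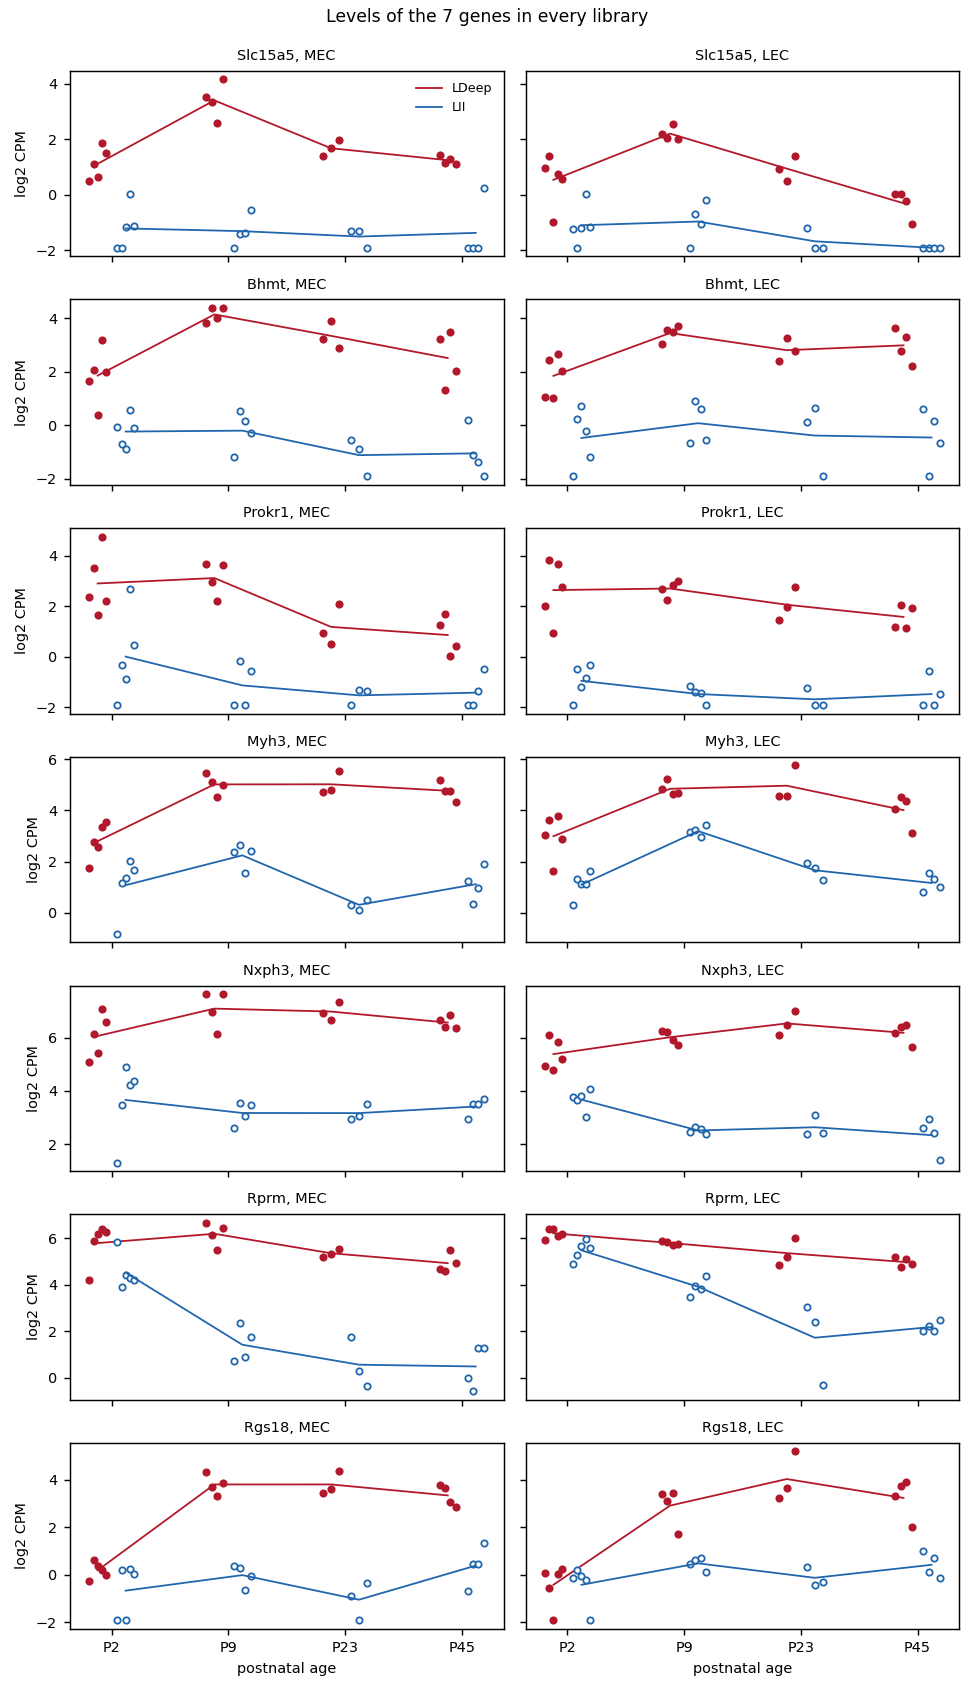
log2 CPM (prior count 2) of the 7 genes in every library against postnatal age, MEC on the left and LEC on the right. Filled red points are LDeep libraries, open blue points are LII libraries, and lines join the group means. From P9 on, each of the 7 genes has its LII points below its LDeep points in both regions, and Rgs18 shows no layer difference at P2 in the LEC.

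Set per kilobase of exon, Nxph3 and Rprm were the most abundant of the 7 in LDeep. In LEC LDeep at P45, Nxph3 stood at 68.6 ± 16.1 CPM per kb (mean ± SD), Rprm at 22.4 ± 3.07, and Rgs18 at 14.6 ± 6.85. Bhmt followed with 4.42 ± 1.85, Myh3 with 2.81 ± 1.05, Prokr1 with 2.4 ± 0.86, and Slc15a5 with 0.336 ± 0.146 CPM per kb. Neighbours in this order from Bhmt to Prokr1 differed by less than their SDs, while Nxph3 and Slc15a5 stood clear at the ends. At P2 the order was another one, with Rprm (52.9 ± 7.39 CPM per kb) level with Nxph3 (41 ± 16.8) within the SDs, and Rgs18 (0.815 ± 0.527) level with Slc15a5 (0.803 ± 0.446).

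**Figure D3:**
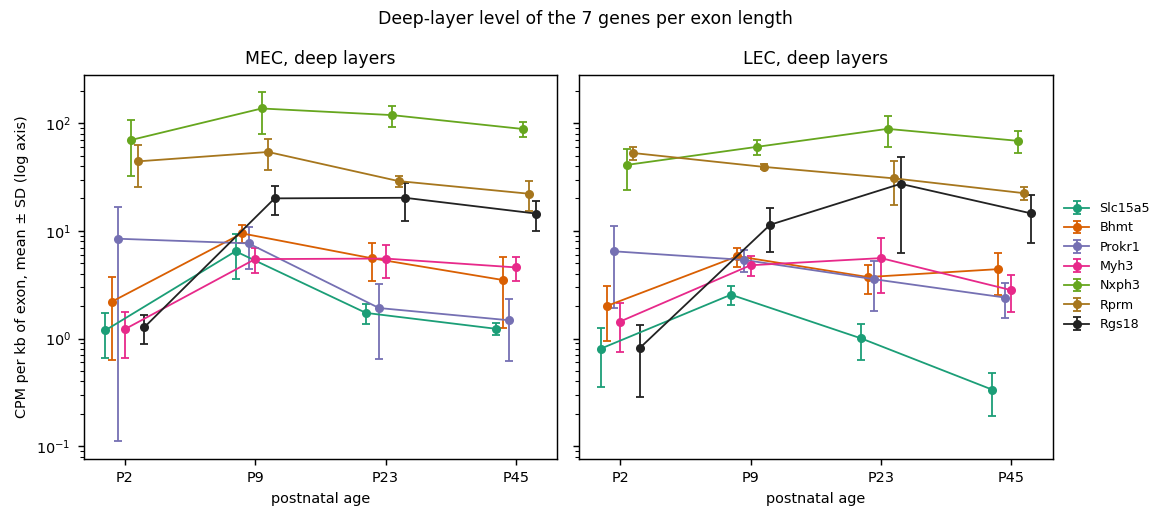
Deep-layer level of each gene in CPM per kb of exon on a log axis, against postnatal age, in the MEC (left) and the LEC (right), as mean with SD bars over the 3 to 5 libraries of an age. Nxph3 and Rprm are the highest lines from P2 on, and Rgs18 starts among the lowest at P2 and lies next below them from P9.

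In the MEC with the ages combined, the LFC that chose the genes was -4.31 for Slc15a5, -4.29 for Bhmt, -3.91 for Prokr1, -3.84 for Rprm, -3.48 for Rgs18, -3.35 for Myh3, and -3.32 for Nxph3. The genes next to them that were not chosen, among those called with a mean of at least 1 CPM, were Drd5 at -3.61 and Nts at -3.40, which lie inside their range, and Fezf2 at -3.24, just outside. In the MEC, 5 of the 7 were lower in LII in all 16 pairs of one number (1.47% of 12341 genes tested), and for Slc15a5 and Nxph3 no LII library reached any LDeep library over the 4 ages (0.0405% of genes). Of all MEC genes tested, 18.3% were called lower in LII. These shares are given as a description, since this contrast chose the members. Without P2 replicate 1, whose marker levels stood apart, the Rprm LFC was -4.03.

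The LEC comparison asks whether the pattern repeats in libraries outside the MEC contrast that chose the genes. The LEC is not an independent set. The genes were chosen with earlier results of these data known, and the tissue may come from the same animals. All 7 genes were lower in LII than in LDeep of the LEC with the ages combined, where 19.2% of the 12255 genes tested were called lower. Prokr1 had the lowest LFC of all genes tested (-5.15 ± 0.40, adjusted p = 4.49e-12), a 35.4-fold difference. The size of that fold rests on few reads, as the 16 LII libraries held 15 Prokr1 counts in all and 6 of them held none. In log2 CPM with its prior count, the mean difference over the 16 pairs was -3.62. Slc15a5 came at rank 3 from the bottom (-3.95, adjusted p = 1.24e-08), with no SE since its P45 LII libraries held no counts. With the P45 value of Slc15a5 at its bound in place of the fitted one, its LFC with the ages combined was -3.26. Nxph3 (-3.32 ± 0.16, adjusted p = 3.75e-17) and Bhmt (-3.28 ± 0.29, adjusted p = 1.03e-10) came at ranks 5 and 6. Rgs18 (-2.73 ± 0.32, adjusted p = 3.36e-08), Myh3 (-2.61 ± 0.19, adjusted p = 7.24e-13), and Rprm (-2.16 ± 0.15, adjusted p = 6.02e-13) followed at ranks 13, 15, and 30. The median LFC was -3.28 over the 7 (-3.26 with Slc15a5 at that bound) and -0.0443 over all genes tested. Over the 16 LEC pairs, 6 of the 7 were lower in LII in every pair (2.2% of genes), and Rgs18 in 14. For Bhmt, Prokr1, and Nxph3 no LEC LII library reached any LDeep library over the 4 ages (0.171% of genes). Leaving out any 1 of the 16 replicates ended none of these 7 calls, and the LFC of Prokr1 was -5.73, adjusted p = 7.64e-11 without P23 replicate 1.

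**Figure D4:**
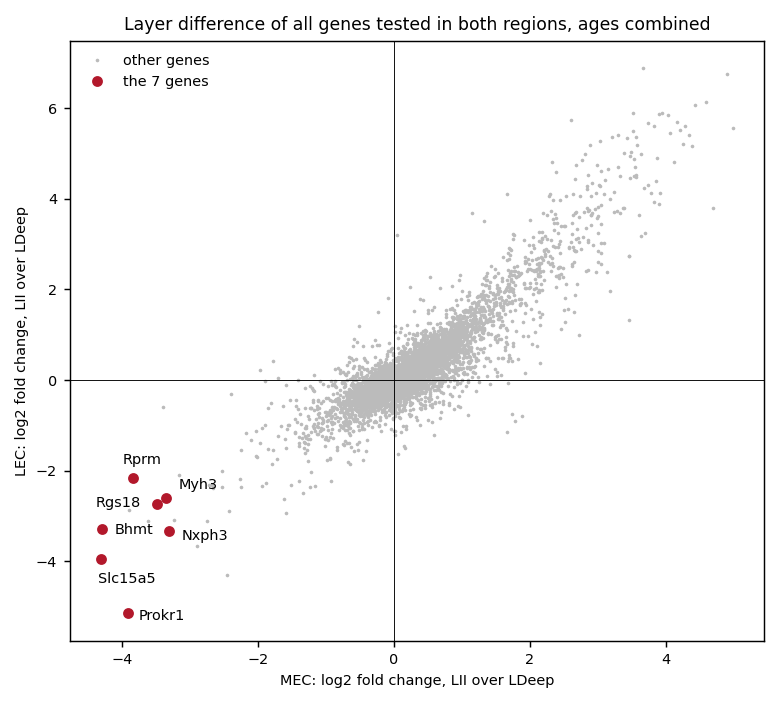
LFC of LII over LDeep with the ages combined in the MEC (horizontal) and the LEC (vertical) for the 12184 genes tested in both regions. Grey points are other genes and red points are the 7, which lie at the lower left end of the cloud. Their place on the horizontal axis is fixed by the choice, which was made on the MEC layer difference.

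By age, the LEC layer difference was in place for most of the 7 at P2 and for all of them from P9. At P2, 5 of 7 were called lower in LII (4.23% of all genes): Prokr1 (-4.67 ± 0.59, adjusted p = 4.61e-07), Bhmt (-2.59 ± 0.57, adjusted p = 0.00136), Slc15a5 (-2.23 ± 0.58, adjusted p = 0.00808), Myh3 (-2.12 ± 0.37, adjusted p = 6.73e-05), and Nxph3 (-1.78 ± 0.25, adjusted p = 2.97e-06). The Slc15a5 call was lost without P2 replicate 1 (-1.99, adjusted p = 0.0574) or replicate 2 (-1.73, adjusted p = 0.0691). Rprm missed the threshold (-0.68 ± 0.23, adjusted p = 0.0521) and passed it with RLE scaling, no filter on low counts, DESeq2, and limma voom, and without P2 replicate 4 (-0.87, adjusted p = 0.0264), P23 replicate 1 (-0.68, adjusted p = 0.0269), P23 replicate 3 (-0.67, adjusted p = 0.00318), or P45 replicate 4 (-0.69, adjusted p = 0.0335). Rgs18 had no detectable layer difference at P2 (-0.00916 ± 0.76, adjusted p = 0.997). The P2 value of Slc15a5 was -3.17, adjusted p = 0.00323 without replicate 4, and that of Bhmt -3.37, adjusted p = 3.76e-04 without replicate 3. At P9 all 7 were called (4.19% of genes), from -5.66 ± 0.75, adjusted p = 9.90e-07 for Prokr1 to -1.69 ± 0.32, adjusted p = 1.68e-04 for Myh3. At P23 all 7 were called again (6.13% of genes), with Prokr1 at -5.87 ± 1.04, adjusted p = 1.24e-04 and Rgs18 at -4.84 ± 0.64, adjusted p = 1.70e-06. Leaving out P23 replicate 1 or replicate 3 moved both fold changes by over 1.5 times and ended neither call. Prokr1 was at -8.20, adjusted p = 8.31e-04 without replicate 1 and at -4.96, adjusted p = 0.00918 without replicate 3, and Rgs18 at -5.56, adjusted p = 1.85e-05 and -3.85, adjusted p = 5.06e-04. At P45 the 7 calls (6.26% of genes) ran from -4.38 ± 0.84, adjusted p = 2.70e-04 for Prokr1 to -2.85 ± 0.33, adjusted p = 1.12e-07 for Rprm, beside Slc15a5 with no LII counts (adjusted p = 0.00464). Prokr1 was at -5.22, adjusted p = 0.0014 without P45 replicate 2. The layers did not overlap in the LEC for 4 of the 7 at P2 (4.86% of genes), and for all 7 at P9 (9.58%), P23 (16.4%), and P45 (5.05%).

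**Figure D5:**
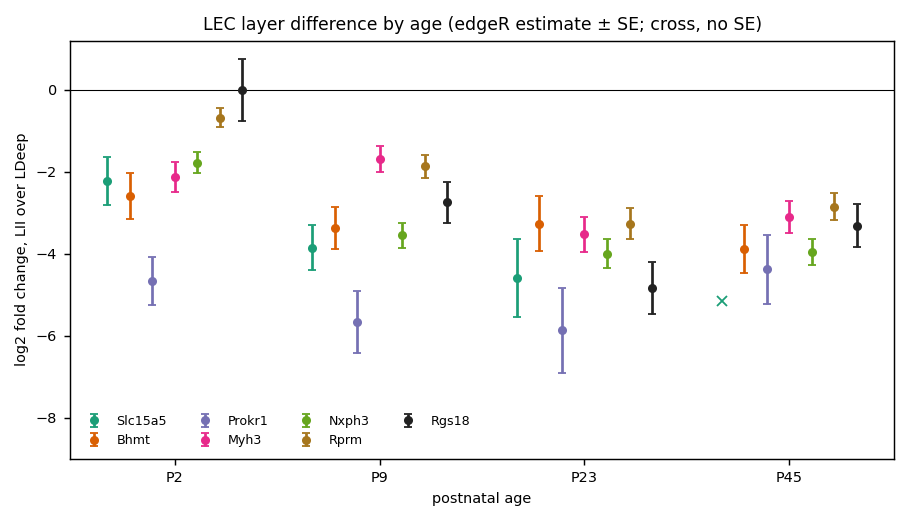
LFC of LII over LDeep in the LEC at each age, as edgeR estimates with SE bars, 1 colour per gene. A cross marks Slc15a5 at P45, which has no SE. Rprm and Rgs18 lie nearest to 0 at P2, and all 7 genes lie below 0 from P9.

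The layer difference of 4 genes in the LEC was larger at P23 and P45 than at P2 and P9. The change of the LFC with age was -2.70 ± 0.66, adjusted p = 0.0125 for Rgs18, -1.79 ± 0.31, adjusted p = 4.04e-04 for Rprm, -1.41 ± 0.39, adjusted p = 0.030 for Myh3, and -1.32 ± 0.31, adjusted p = 0.00837 for Nxph3, where 2.74% of all genes were called in this direction. Without P23 replicate 3 the calls of Rgs18 (-2.20, adjusted p = 0.0503), Nxph3 (-1.11, adjusted p = 0.0618), and Myh3 (-1.05, adjusted p = 0.174) were lost, and Rprm kept its own. Myh3 also lost its call without P2 replicate 5 (-1.24, adjusted p = 0.105), P9 replicate 1 (-1.36, adjusted p = 0.0708), P9 replicate 4 (-1.34, adjusted p = 0.0681), P45 replicate 1 (-1.39, adjusted p = 0.0544), or P45 replicate 3 (-1.39, adjusted p = 0.0629). Myh3 and Rgs18 lost it with limma voom and quantile scaling as well (adjusted p = 0.091 and 0.117). For Slc15a5 (-1.83, adjusted p = 0.368), Bhmt (-0.59 ± 0.65, adjusted p = 0.753), and Prokr1 (0.042 ± 0.60, adjusted p = 0.989) no change with age passed the threshold, which does not show that there was none.

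Within LEC LDeep the 7 genes took different courses with age. From younger (P2 and P9) to older (P23 and P45) animals 3 rose, where 35.5% of all genes rose: Rgs18 (2.74 ± 0.33, adjusted p = 1.82e-08), Nxph3 (0.68 ± 0.18, adjusted p = 0.00142), and Myh3 (0.63 ± 0.22, adjusted p = 0.0116). Another 3 fell, where 31.2% of genes fell: Slc15a5 (-1.22 ± 0.34, adjusted p = 0.00239), Prokr1 (-0.99 ± 0.32, adjusted p = 0.00752), and Rprm (-0.77 ± 0.19, adjusted p = 7.61e-04). Bhmt did not pass the test (0.29 ± 0.30, adjusted p = 0.399). Since about that share of all genes was called either way, the number of members called is not particular to them. Without P23 replicate 3 the Myh3 call was lost (0.34, adjusted p = 0.172).

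From P2 to P9 in LEC LDeep 4 of the 7 rose. Rgs18 rose 13.6-fold (3.77 ± 0.51, adjusted p = 1.48e-06), and Myh3 (1.71 ± 0.29, adjusted p = 3.72e-05), Slc15a5 (1.63 ± 0.39, adjusted p = 0.00162), and Bhmt (1.5 ± 0.40, adjusted p = 0.0040) rose 3.27-fold, 3.1-fold, and 2.84-fold, where 17.8% of all genes were called higher. Nxph3 (0.53 ± 0.24, adjusted p = 0.0821), Prokr1 (-0.30 ± 0.39, adjusted p = 0.575), and Rprm (-0.46 ± 0.25, adjusted p = 0.142) did not pass the test. Nxph3 passed it with limma voom (adjusted p = 0.0152) and without P2 replicate 2 (0.75, adjusted p = 0.0178), P2 replicate 4 (0.67, adjusted p = 0.0344), or P45 replicate 4 (0.54, adjusted p = 0.0402), and Rprm as a fall without P23 replicate 3 (-0.44, adjusted p = 0.037). From P9 to P23 Rgs18 was called higher (1.30 ± 0.42, adjusted p = 0.0122, 23.1% of genes) and Slc15a5 lower (-1.29 ± 0.45, adjusted p = 0.0215, 18.7% of genes). Neither call held throughout: Rgs18 lost it without P23 replicate 3 (0.42, adjusted p = 0.489) or P9 replicate 4 (1.04, adjusted p = 0.0528), and Slc15a5 without P9 replicate 3 (-1.19, adjusted p = 0.0533), P23 replicate 1 (-1.25, adjusted p = 0.0765), or P23 replicate 2 (-1.11, adjusted p = 0.109). Without P23 replicate 3 Rprm was called lower (-0.76, adjusted p = 0.0090), and without P23 replicate 1 Nxph3 was called higher (0.80, adjusted p = 0.0336). From P23 to P45 no member was called, where edgeR called 0.114% of genes (14 of 12255, and 807 at an unadjusted p below 0.05). The member LFCs of this step ran from -1.49 ± 0.55, adjusted p = 0.522 for Slc15a5 to 0.25 ± 0.45, adjusted p = 0.997 for Bhmt.

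In the MEC, with the layers weighted equally, Prokr1 (-2.32 ± 0.63, adjusted p = 0.00173) and Rprm (-1.77 ± 0.28, adjusted p = 1.75e-06) were lower in the older animals, where 37.5% of all genes were, and Rgs18 was higher (0.87 ± 0.34, adjusted p = 0.0247), where 36.8% of genes were. Leaving out P2 replicate 1 ended none of these 3 calls. The layer difference of the same libraries chose the genes, so the p-values are not free of that choice. LII has an equal weight, and after P2 it held few Prokr1 reads. The most in a MEC LII library were 6 counts at P9, 1 at P23, and 3 at P45. The Rgs18 call was lost without P23 replicate 3 (0.55, adjusted p = 0.291) and with limma voom (adjusted p = 0.057). Bhmt (-0.71 ± 0.37, adjusted p = 0.0825), Slc15a5 (-0.65 ± 0.47, adjusted p = 0.215), Nxph3 (-0.13 ± 0.23, adjusted p = 0.622), and Myh3 (-0.10 ± 0.22, adjusted p = 0.684) did not pass the test. Bhmt passed it with DESeq2 (adjusted p = 0.0496) and without P2 replicate 3 (-0.83, adjusted p = 0.034) or P45 replicate 1 (-1.03, adjusted p = 0.0191). Slc15a5 passed it without P45 replicate 4 (-1.60, adjusted p = 0.00702), the only MEC LII library of that age with Slc15a5 reads and the one with the fewest meningeal markers. In LDeep alone, as a description, the older over younger LFC was -2.23 for Prokr1 in the MEC beside -0.99 in the LEC, -0.95 beside -0.77 for Rprm, and -0.91 beside -1.22 for Slc15a5. It was 1.75 beside 2.74 for Rgs18, 0.96 beside 0.63 for Myh3, 0.0652 beside 0.68 for Nxph3, and -0.0314 beside 0.29 for Bhmt. The difference between the regions was not tested.

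Relatives and pathway partners of the 7 were set beside them from fixed lists, in the layer contrast with the ages combined. Over all genes tested in the LEC, 2353 were lower and 2263 higher in LII of 12255, with a median LFC of -0.0443. The myosin heavy chains and sarcomere genes gave 6 lower and 4 higher in LII of 15 tested, median LFC -0.12 in the LEC, and 5 lower and 4 higher in LII of 15 tested, median LFC -0.042 in the MEC. The fast skeletal chains Myh2 (-2.36 ± 0.18, adjusted p = 3.29e-12), Myh4 (-2.31 ± 0.32, adjusted p = 6.78e-07), and Myh1 (-2.0 ± 0.19, adjusted p = 5.37e-10) were lower in LEC LII as Myh3 was, while Des (1.82 ± 0.16, adjusted p = 9.97e-11), Myh11 (1.52 ± 0.15, adjusted p = 5.23e-10), and Myh9 (0.70 ± 0.19, adjusted p = 0.0032) were higher. The Myh9 call was lost with limma voom and quantile scaling (0.23, adjusted p = 0.335). Desmin and Myh11 are proteins of smooth muscle, and Myh9 is a non-muscle myosin.

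Of the other neurexophilins, Nxph4 was lower in LII of the LEC (-2.32 ± 0.19, adjusted p = 2.49e-11) and of the MEC (-2.72 ± 0.31, adjusted p = 1.80e-07). Nxph1 was lower as well, in the LEC (-0.59 ± 0.0559, adjusted p = 2.91e-10) and in the MEC (-0.29 ± 0.0888, adjusted p = 0.0120). The prokineticin system gave 2 lower and 0 higher in LII of 3 tested, median LFC -0.41 in the LEC. The other receptor gene Prokr2 stood at -1.38 ± 0.22, adjusted p = 5.55e-06, and Mrap2, an accessory protein of such receptors, at -0.41 ± 0.10, adjusted p = 0.00214. Of the ligands, Prok1 fell below the filter on low counts and Prok2, at most 16 counts in an LEC library, did not pass the test except with limma voom (-0.87, adjusted p = 0.0247).

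RGS genes gave 4 lower and 6 higher in LII of 15 tested, median LFC -0.0488 in the LEC and 4 lower and 2 higher in LII of 15 tested, median LFC 0.0513 in the MEC. Rgs9 (-1.68 ± 0.17, adjusted p = 8.73e-10 in the LEC), Rgs12 (-0.68 ± 0.0633, adjusted p = 2.70e-10), and Rgs8 (-0.47 ± 0.12, adjusted p = 0.00155) were lower in LII of both regions. Rgs5, a gene of pericytes, was higher (0.73 ± 0.0772, adjusted p = 3.75e-09), as were Rgs3 (0.51 ± 0.0799, adjusted p = 4.27e-06) and Rgs16 (0.59 ± 0.15, adjusted p = 0.0016), the last not with limma voom (0.26, adjusted p = 0.19). The reprimo relative Rprml was lower in LII (-0.46 ± 0.0652, adjusted p = 8.36e-07). For the betaine and methionine cycle the counts were 2 lower and 7 higher in LII of 19 tested, median LFC 0.0705. Chdh (-0.81 ± 0.14, adjusted p = 1.54e-05), which makes betaine from choline, and Dmgdh (-0.41 ± 0.13, adjusted p = 0.0156), which takes up the product of Bhmt, were lower, and the betaine transporter Slc6a12 (3.62 ± 0.32, adjusted p = 8.26e-11), Sardh (0.57 ± 0.0774, adjusted p = 4.02e-07), and Cth (0.55 ± 0.0977, adjusted p = 3.62e-05) were higher. SLC15 transporters gave 2 lower and 2 higher in LII of 4 tested, median LFC -0.0086, with Slc15a1 (-0.63 ± 0.18, adjusted p = 0.00741) and Slc15a4 (-0.25 ± 0.054, adjusted p = 4.03e-04) lower and Slc15a3 (0.43 ± 0.15, adjusted p = 0.0212) and Slc15a2 (0.23 ± 0.0915, adjusted p = 0.0446) higher. The Slc15a3 value turned with limma voom (-0.043, adjusted p = 0.837).

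Deep-layer neuron markers gave 12 lower and 1 higher in LII of 16 tested, median LFC -1.21 in the LEC and 14 lower and 2 higher in LII of 16 tested, median LFC -1.33 in the MEC. Cplx3 (-3.67 ± 0.22, adjusted p = 1.44e-14), Fezf2 (-3.09 ± 0.17, adjusted p = 1.33e-15), and Nr4a2 (-2.50 ± 0.23, adjusted p = 1.64e-10) led them in the LEC. Lpar1 went the other way (2.31 ± 0.16, adjusted p = 3.36e-13), and Ntsr1 was higher in MEC LII (0.95 ± 0.25, adjusted p = 0.0031), though not with limma voom (0.65, adjusted p = 0.233). Nxph4 is also in this list. Layer II markers gave 1 lower and 3 higher in LII of 6 tested, median LFC 0.33, with Reln (1.4 ± 0.19, adjusted p = 5.96e-07), Lhx2 (0.53 ± 0.0635, adjusted p = 4.84e-08), and Calb1 (0.49 ± 0.10, adjusted p = 3.50e-04) higher. Oligodendrocyte markers gave 4 lower and 1 higher in LII of 10 tested, median LFC -0.40, with Ermn (-1.02 ± 0.32, adjusted p = 0.0108), Mag (-0.90 ± 0.20, adjusted p = 6.58e-04), and Mbp (-0.81 ± 0.24, adjusted p = 0.00864) lower and Cldn11, which meningeal cells also express, higher (2.27 ± 0.17, adjusted p = 9.57e-13). Their summed level in LEC LDeep was 134 to 176 CPM at P2, 182 to 266 CPM at P9, 4420.4 to 7654 CPM at P23, and 2523 to 4548 CPM at P45. LEC LII P9 replicate 2 held 955 CPM of these markers, where the rest of its group held 162 to 200 CPM. Mobp and Mal had positive LFCs in the LEC that did not pass the test. Their mean levels over the LEC libraries were nevertheless higher in LDeep (99.5 and 94.4 CPM) than in LII (24.1 and 29.3 CPM). The LFC weights the 4 ages equally on a log scale, while these means are of CPM over libraries. In the MEC, Mal had a positive LFC as well (0.93, adjusted p = 0.321) and Mobp a negative one (-0.51, adjusted p = 0.662). The part of LEC LII P9 replicate 2 in the fits of this list was not tested. In LEC LDeep, Rgs18, Myh3, Slc15a5, Bhmt, and the summed oligodendrocyte markers all rose from P2 to P9. The largest rise of that sum came from P9 to P23. In that step Rgs18 was called higher, Slc15a5 was called lower, and no other member was called, Myh3 included (0.27 ± 0.31, adjusted p = 0.522). The Rgs18 call was lost without P23 replicate 3 (0.42, adjusted p = 0.489), whose LDeep library held the highest sum of LEC LDeep (7654 CPM). The part of the oligodendrocyte sum in the courses of the members with age was not tested. Blood, platelet, and myeloid markers gave 0 lower and 6 higher in LII of 9 tested, median LFC 0.39, led by Pf4, Hba1 (0.93 ± 0.12, adjusted p = 2.94e-07), and Hbb (0.85 ± 0.13, adjusted p = 4.31e-06). Choroid plexus and ependyma markers gave 0 lower and 2 higher in LII of 4 tested, median LFC 1.82, namely Aqp1 (2.98 ± 0.28, adjusted p = 2.42e-10) and Rarres2 (2.68 ± 0.15, adjusted p = 2.17e-15).

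The genes whose log2 CPM followed each member most closely were found by Pearson's r over the 64 libraries, among 11892 other genes with a mean of at least 1 CPM, and are given as a description. The points share library, layer, age, and region. For Slc15a5 they were Tle4 (r = 0.87), Sema3c (r = 0.85) and Myh1 (r = 0.84). For Bhmt they were Lrrtm2 (r = 0.87), Sema3c (r = 0.86) and Sulf1 (r = 0.85), and for Prokr1 Tle4 (r = 0.92), Sox5 (r = 0.87) and Prss12 (r = 0.87). Tle4, a repressor that marks layer VI neurons, was thus among the 3 for Slc15a5 and Prokr1, and also for Nxph3 with Sstr2 (r = 0.92), Myh2 (r = 0.90) and Tle4 (r = 0.89). For Myh3 they were Lrrtm2 (r = 0.86), Thsd7b (r = 0.85) and Ap2a2 (r = 0.85). For Rprm they were Cyth2 (r = 0.88), Grik3 (r = 0.86) and Rftn1 (r = 0.84), and for Rgs18 Lcp1 (r = 0.90), Ipcef1 (r = 0.87) and Kcnmb4 (r = 0.85).

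Among the 7 themselves, r over the 64 libraries ranged from 0.38 (Rprm and Rgs18) to 0.86 (Myh3 and Rgs18). Within the 32 LDeep libraries, where the difference between LII and LDeep libraries does not enter, Myh3 and Rgs18 stayed close (0.89), as did Myh3 and Nxph3 (0.76). Rprm and Prokr1 were at 0.57, and Rprm and Rgs18 at -0.32. Slc15a5 was at 0.61 with Nxph3, 0.60 with Bhmt, 0.59 with Myh3, 0.44 with Prokr1, 0.42 with Rprm, and 0.40 with Rgs18. These libraries share age and region, and no p is given. They also differ in layer II markers (266 to 1061 CPM in MEC LDeep, 541 to 1711 CPM in LEC LDeep), and the part of layer make-up in r was not tested.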

How the data were processed

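Total RNA from LII and LDeep of the MEC and LEC of Long Evans rats was sequenced as stranded paired-end libraries after ribosomal RNA removal, with all samples spread over all lanes. Per the file headers and the methods of the study, the authors trimmed reads with Trimmomatic (0.33), aligned them to Rn6 with STAR (2.4.0), and counted read pairs on exons by strand with featureCounts (1.4.6-p1), so the deposited values are raw counts of read pairs per gene and library. Pairs that overlap several genes were counted for each, and pairs with several alignments are not in the counts by the default of that version, which can lower genes with near copies.

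The members and lists were chosen with earlier results of these data known. The counts were tested per region (32 libraries) with the quasi-likelihood test of edgeR (4.0.16, R 4.3.3), TMM scaling, filterByExpr, and 1 mean per age and layer, with Benjamini-Hochberg adjustment over all genes kept and a threshold of 0.05. The 11 tested contrasts gave 77 tests of the 7 genes. The SE of an LFC is its size over the root of the F statistic. Genes named beside the members are, per fixed list, those with the largest called LFC in each direction, the 3 genes most like each member, and the genes next to the MEC range. Others were named after their values were seen. Some listed genes are not reported here. Alternatives were DESeq2 (1.42.0), limma voom (3.58.1) with TMM and quantile scaling, RLE scaling, no filter or at least 10 counts in every library, each replicate left out, and the replicate number as a block. Libraries of a group were distinct: the lowest chi-square per degree of freedom over 100 replicate pairs was 3.08. The labels do not say that replicates are separate animals, while the paper calls the replicates of its MEC mRNA analysis biological. The p-values measure the spread between these samples. Counting error alone limits levels near 1 count, 0.0874 to 0.257 CPM.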

Additional observations from a re-analysis of the deposited data

Results flagged for a closer look

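In 4 of 84 groups of 4 or 5 libraries, 1 library stood apart from the rest of its group for a member, where chance gives about 1 in 20. Slc15a5 stood at 0.23 log2 CPM in MEC LII P45 replicate 4, and the other 3 libraries of the group held no counts (-1.91). Rprm stood at 5.85 log2 CPM in MEC LII P2 replicate 1, where the next library was at 4.42. In MEC LDeep of the same replicate Rprm was lowest of its group, at 4.21, where the next was at 5.90, and meningeal and layer II markers of that replicate were also higher in LDeep than in LII. Rgs18 stood at -1.91 log2 CPM, which is 0 counts, in LEC LII P2 replicate 5, where the next library was at -0.22.

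The LEC layer LFC at P23 and P45 differed from that at P2 and P9 for 4 members in edgeR's test of the change. The change was -2.70 for Rgs18 (adjusted p = 0.0125), -1.79 for Rprm (adjusted p = 4.04e-04), -1.41 for Myh3 (adjusted p = 0.0300), and -1.32 for Nxph3 (adjusted p = 0.00837). Without P23 replicate 3, whose LDeep library held the most deep-layer markers of LEC LDeep and whose LII library held the lowest summed CPM of the 7 genes, Rprm alone kept its call.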

How the results depend on the processing

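All 7 LEC layer calls with the ages combined kept their direction and their call under DESeq2, limma voom, RLE scaling, no filter, the replicate block, and without any 1 replicate. The filter of 10 counts in every library kept Nxph3 only, so 1 member was called, and with fewer genes tested (9886 and 9909) the counts of called genes fell to 3061 for the LEC layer contrast, 952, 1357, 1144, and 1133 for it at P2, P9, P23, and P45, 270 for its change with age, 7 for P45 over P23, and 3111 for the MEC layer contrast (4616, 1584, 2091, 1758, and 1958 in the main test for the LEC layer contrasts, 4692 for the MEC, and 14 for P45 over P23). DESeq2 called 46 genes for P45 over P23 (18 higher and 28 lower, against 1 and 13), and the cause was not tested. With limma voom the split of higher to lower was 854 to 721 at P2 (1066 to 518 in the main test), 1176 to 943 at P9 (1578 to 513), 216 to 276 for the change with age (157 to 336), and 2 to 9 for P45 over P23. The sign of uncalled values turned for Prokr1 in the change with age under DESeq2 (-0.013) and for Prokr1 from P2 to P9 under limma voom (0.059). DESeq2 gave no adjusted p for Slc15a5 from P23 to P45.

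Without 1 replicate at a time, the number of genes called ran from 1384 to 2575 at P9 (lowest without P9 replicate 1), 871 to 2213 at P23 (lowest without P23 replicate 3), 1149 to 2827 at P45 (lowest without P45 replicate 3), 5 to 31 for P45 over P23, and 327 to 632 for the change with age. Values that turned sign, none called, ran from -0.45 to 0.50 for Rgs18 at P2, -0.54 to 0.041 for Prokr1 from P2 to P9, -1.13 to 0.50 for Prokr1 in the change with age, -0.30 to 0.47 for Myh3 from P9 to P23, and -0.0028 to 0.52 for Bhmt from P23 to P45.

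The labels do not say whether a replicate number pairs the layers. The paper states for its miRNA samples that a number marks LII and LDeep of the same animal. Deviations from the group means correlated at a mean r of 0.13 in both regions over 16 pairs of the same number. Of these, 9 were over 0.1 in the LEC and 8 in the MEC. Over 50 pairs of different numbers the mean r was -0.041 in the LEC and -0.048 in the MEC (10 and 11 over 0.1). Libraries of the same number were thus more alike on average, with overlapping ranges. Of 16 LII libraries per region, 10 in the LEC and 8 in the MEC correlated best with their own number. The replicate block changed no call of a member. It turned uncalled values for Rgs18 at P2 (0.0030) and Prokr1 in the change with age (-0.035), and as a random block for Myh3 (0.018) and Nxph3 (0.046) in the MEC age contrast. No paired analysis was possible for the LDeep age contrasts because each number has 1 LDeep library per age.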
